A study of Mus musculus with 9 samples.

Results

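The growth hormone and insulin-like growth factor (IGF) axis was followed in epididymal adipose tissue of obese mice during diet-induced weight loss. It was represented by 10 genes chosen by symbol from the 56748 genes of the count table, namely the ligand gene *Igf1*, the receptor genes *Ghr*, *Igf1r* and *Igf2r*, the feedback inhibitor gene *Socs2* and the binding protein genes *Igfbp3*, *Igfbp4*, *Igfbp5*, *Igfbp6* and *Igfbp7*. All 10 passed the filter on low counts and were tested together with the other genes, 18510 in all.

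Growth hormone from the pituitary binds its receptor, encoded by *Ghr*, which signals through the kinase JAK2 and the transcription factors STAT5A and STAT5B, and a well-known target of this signal is *Igf1*. The protein SOCS2 is induced by the same signal and dampens it. IGF1 and IGF2 act through the IGF1 receptor, a tyrosine kinase close to the insulin receptor, while secreted binding proteins hold most IGF in the tissue and the blood and set how much reaches the receptor. The liver is the main source of circulating IGF1, and adipose tissue makes IGF1 and several binding proteins of its own.

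Wild-type (WT) male C57BL/6J mice, 8 weeks old at the start, were fed a high-fat diet (HFD) for 8 weeks (Pre), and weight loss was then induced by standard diet (SD) for 1 week (WL1) or 2 weeks (WL2). RNA of whole epididymal adipose tissue was sequenced in 3 libraries per phase. All 3 groups had been fed HFD, and a group that was never fed HFD was not analysed here. From the same starting age, WL1 and WL2 came 1 and 2 weeks later than Pre, and no library came from mice kept on HFD for that time. Diet, age and time therefore changed together between the phases, and their effects cannot be told apart here. The labels number the libraries within a phase without saying whether a number is a separate mouse, so the p-values measure the spread between these libraries, which may be technical.

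Between 16434450 and 22729072 reads were counted per library. Values below are CPM, counts scaled to the library total after TMM factors of 0.933 to 1.07 (trimmed mean of M-values), given in the order of libraries 1, 2 and 3 of a phase. Adipocyte RNA was abundant in every library, with a summed level of 23234 to 46915 CPM over 10 markers, and none of 6 genes of epididymis epithelium passed the filter (summed level 0.11 to 0.453 CPM). Transcripts of mitochondrial genes took 3.15% to 3.57% of the counts at Pre, 1.86% to 2.03% at WL1 and 2.28% to 2.88% at WL2. Other cells were unevenly represented. Summed over 8 markers each, hepatocyte RNA was 59.4 and 96.9 CPM in Pre 2 and Pre 3 and 85.8 CPM in WL1 1, against 3.86 to 11.2 CPM in the other 6 libraries, and mesothelial RNA was 40.0 CPM in Pre 1 and 45.4 CPM in WL1 2, against 119 to 712 CPM elsewhere. Results are therefore also given without the 3 hepatocyte-rich libraries and without the 2 mesothelium-poor ones. The first leaves 1 Pre library, which is then assumed to vary like the libraries of the other phases, and 2 at WL1. The second leaves 2 at Pre and 2 at WL1.

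The axis did not move as a block. At WL1, *Igf1*, *Igfbp4* and *Igfbp5* were lower and *Igf2r* was higher than at Pre. At WL2, *Igf1* was lower and *Igf1r* higher than at Pre, whereas *Igf2r* was back near its level at Pre. Between WL1 and WL2, *Igf2r* fell and *Igfbp6* rose. *Ghr*, *Socs2*, *Igfbp3* and *Igfbp7* passed the adjusted threshold of 0.05 in none of the 3 comparisons. Adjusted p-values throughout are from the quasi-likelihood test of edgeR, with Benjamini-Hochberg adjustment over the 18510 genes.

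**Figure D1:**
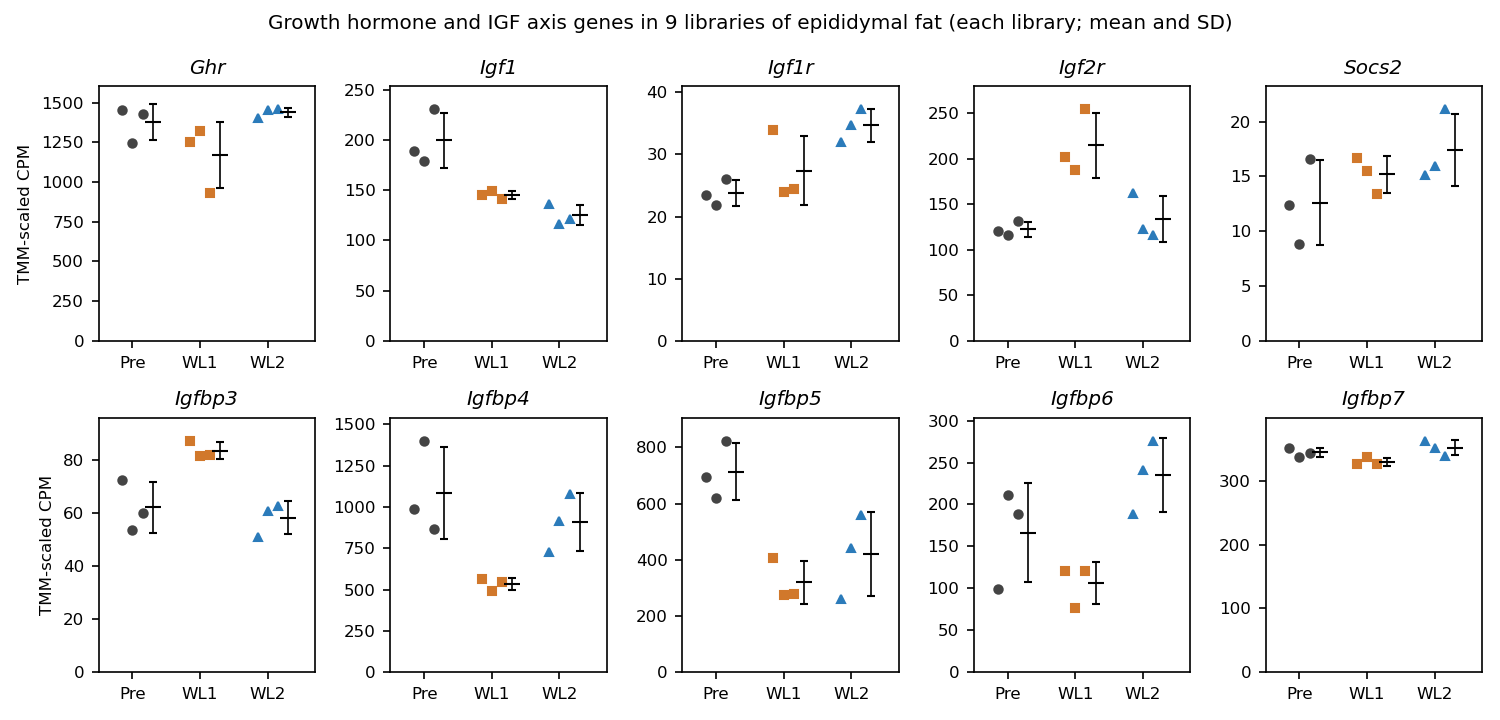
Level of each of the 10 genes in TMM-scaled CPM (vertical axes, each from 0) by phase (horizontal axis), with 1 symbol per library and the mean and SD of 3 libraries beside them. *Igf1* stepped down from 179 to 230 CPM at Pre to 117 to 136 CPM at WL2, *Igf2r* was highest at WL1, and *Igfbp7* stayed between 326 and 362 CPM.

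At WL1 against Pre, 4 of the 10 genes passed the threshold, 1 higher and 3 lower, where 7.29% of all genes tested passed it (2.6% higher and 4.69% lower). The libraries of the phases did not overlap for 6 of the 10, against 28.7% of all genes. At WL2 against Pre, 2 of 10 passed, 1 in each direction, against 10% of all genes (3.35% higher and 6.66% lower), and 3 of 10 did not overlap, against 30.9%. At WL2 against WL1, 2 of 10 passed, again 1 in each direction, against 3.68% (1.31% higher and 2.37% lower), and 7 of 10 did not overlap, against 30.3%. With 1 gene called in each direction in the last 2 comparisons, these counts describe single genes rather than a shift of the axis. The median log2 fold change of the 10 genes was -0.15, 0.05 and 0.25 in the 3 comparisons, beside 0.02, 0.01 and -0.0014 over all genes tested. The 3 comparisons share libraries pairwise and are not independent.

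The counts depended on single libraries. With each of the 9 libraries left out in turn, 1 to 4 of the 10 genes passed at WL1 against Pre (1 without Pre 1, WL1 2 or WL1 3, and 2 without Pre 3). At WL2 against Pre, 2 passed without WL1 1 and 1 without any other library. At WL2 against WL1, 0 passed without Pre 3, any one of the WL1 libraries, WL2 2 or WL2 3, 4 without Pre 2, 3 without WL2 1 and 2 without Pre 1. Calls over all genes moved in the same 9 fits as well. They ranged from 512 (without WL1 3) to 1500 (without WL2 1) at WL1 against Pre. At WL2 against Pre they ranged from 743 (without WL2 2) to 1688 (without WL1 3), and at WL2 against WL1 from 37 (without WL2 2) to 1351 (without WL2 1). Without the hepatocyte-rich libraries the counts were 0, 0 and 1, and without the mesothelium-poor ones 0, 1 and 0. Over all genes the calls also dropped, from 1350, 1853 and 681 to 166, 706 and 647 in the first case and to 252, 987 and 151 in the second.

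**Figure D2:**
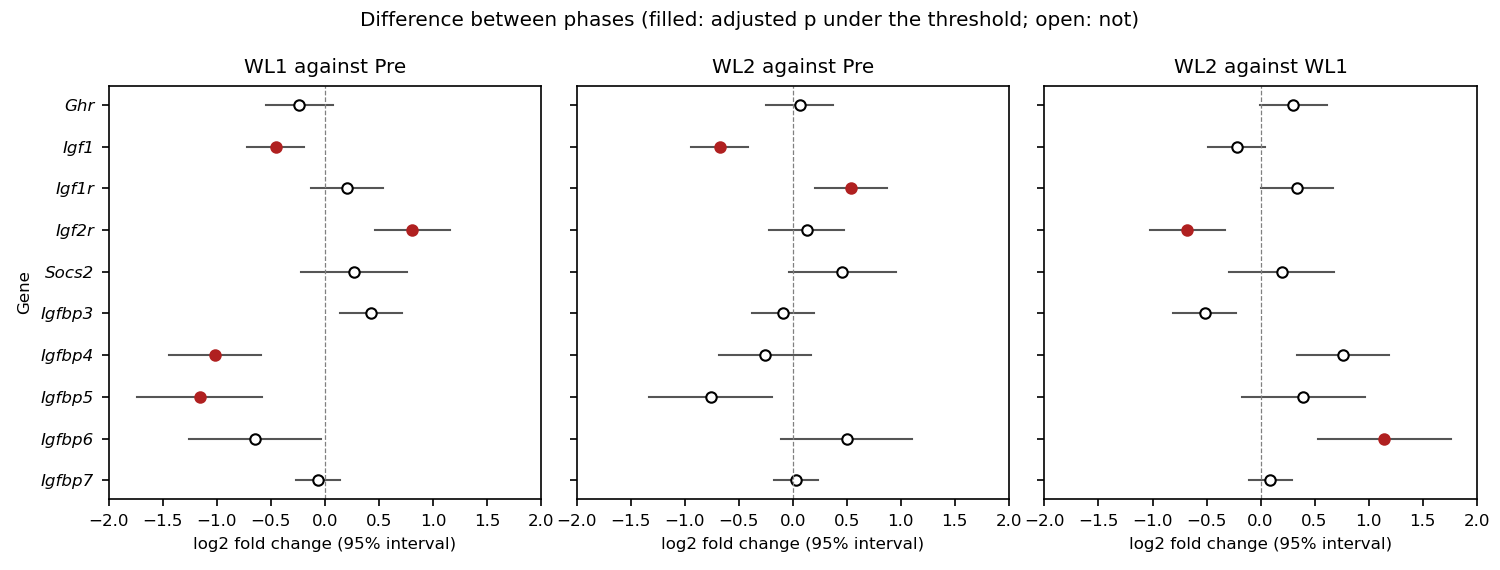
Log2 fold change of each gene (horizontal axes) with its 95% interval, in WL1 against Pre, WL2 against Pre and WL2 against WL1, where filled points passed the adjusted threshold in edgeR's quasi-likelihood test and open points did not. The filled points are *Igf1*, *Igf2r*, *Igfbp4* and *Igfbp5* in the left panel, *Igf1* and *Igf1r* in the middle and *Igf2r* and *Igfbp6* on the right.

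For the 4 genes called at WL1 against Pre, the 250 bases in front of the transcription start are shown, so that the promoters of genes that moved in different directions can be read side by side. They were taken from RefSeq on GRCm38.p6, which held 9 of the 10 genes, each 5′ to 3′ on the strand of the gene and ending at the base before the start. Capitals mark CACGTG, the E-box read by basic helix-loop-helix factors such as TFEB, a regulator of lysosomal genes, and TATAAA, the TATA box. Both were searched on both strands, as was TTCNNNGAA, the core of STAT5 sites, and the motifs share no letters with each other in these windows.
*Igf1*, chr10:87860861-87861110, + strand: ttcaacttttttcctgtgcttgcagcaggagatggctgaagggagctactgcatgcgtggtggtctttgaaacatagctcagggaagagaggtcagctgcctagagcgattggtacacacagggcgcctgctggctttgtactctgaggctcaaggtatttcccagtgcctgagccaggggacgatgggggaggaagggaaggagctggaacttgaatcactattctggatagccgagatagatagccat
*Igf2r*, chr17:12769707-12769956, - strand: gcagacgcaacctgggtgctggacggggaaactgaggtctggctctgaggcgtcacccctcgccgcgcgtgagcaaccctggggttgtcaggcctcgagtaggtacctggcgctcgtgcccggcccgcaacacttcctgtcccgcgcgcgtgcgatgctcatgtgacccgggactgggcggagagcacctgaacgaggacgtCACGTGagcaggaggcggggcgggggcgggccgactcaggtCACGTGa
*Igfbp4*, chr11:99040994-99041243, + strand: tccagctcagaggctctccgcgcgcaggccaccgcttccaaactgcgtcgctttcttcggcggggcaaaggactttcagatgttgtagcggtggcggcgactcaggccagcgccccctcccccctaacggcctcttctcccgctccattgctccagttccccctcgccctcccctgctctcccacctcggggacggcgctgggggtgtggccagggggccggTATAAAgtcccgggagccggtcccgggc
*Igfbp5*, chr1:72874866-72875115, - strand: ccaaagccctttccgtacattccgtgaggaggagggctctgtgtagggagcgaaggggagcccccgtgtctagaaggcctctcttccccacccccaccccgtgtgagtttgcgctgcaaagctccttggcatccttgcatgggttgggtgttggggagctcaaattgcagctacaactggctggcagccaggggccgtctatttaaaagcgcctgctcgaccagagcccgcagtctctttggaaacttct

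In the window of *Igf2r*, the E-box was found 48 and 7 bases before the start. It occurred at least once in 6.02% of 32851 promoters of the same length and at least 2 times in 0.429%, and in none of the other windows of the axis. In *Igfbp4*, TATAAA began 28 bases before the start, the usual place of a TATA box. The same letters, read on either strand, occurred in 12.4% of all promoters, and in the axis also in *Igfbp6*, 148 bases before the start, and in 1 of the 2 windows of *Ghr*, 188 bases before the start. The windows of *Igf1* and *Igfbp5*, both of which fell at WL1, held none of the 3 motifs. TTCNNNGAA occurred in 7.02% of all promoters and in no window of the axis. A match describes letters in the reference and no binding was measured here.

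*Igf1* (ENSMUSG00000020053, chromosome 10, 87694127 to 87772904, + strand in the authors' table) encodes IGF1, the growth factor through which much of the action of growth hormone is carried. Its level was 189, 179 and 230 CPM at Pre, 145, 150 and 141 CPM at WL1, and 136, 117 and 122 CPM at WL2. Every WL1 library lay below every Pre library and above every WL2 library. The level fell by 27.1% at WL1 against Pre (log2 fold change -0.46 ± 0.12 (SE), adjusted p = 0.0449) and by 37.4% at WL2 against Pre (-0.68 ± 0.12, adjusted p = 0.00592). The step from WL1 to WL2 did not pass the threshold (-0.22 ± 0.12, adjusted p = 0.323). In whole tissue, fewer cells of a type and less RNA per cell cannot be told apart, here and in all results below.

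The fall of *Igf1* at WL2 held in each of 9 fits with 1 library left out (-0.75 to -0.56). The fall at WL1 kept its size (-0.53 to -0.34) but passed the threshold in 2 of these fits, without Pre 2 or without WL2 1, and lost it without Pre 1, Pre 3, any of the WL1 libraries, WL2 2 or WL2 3. It was also lost with total counts alone (-0.36) and with the compared phases alone (-0.48). Since *Igf1* is abundant in liver, its level was read against hepatocyte RNA. Among the 6 libraries with a hepatocyte sum of 11.2 CPM or less, *Igf1* was 189 CPM in Pre 1, 150 and 141 CPM in WL1 2 and WL1 3, and 117 to 136 CPM at WL2, so the order of the phases was the same without the hepatocyte-rich libraries. In that fit the log2 fold changes were -0.38 at WL1 and -0.60 at WL2, neither past the threshold with 1 Pre library left. Without the mesothelium-poor libraries they were -0.51, not past the threshold, and -0.71, past it. The part of hepatocyte RNA in the *Igf1* level was not tested.

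*Ghr* (ENSMUSG00000055737, chromosome 15, 3347242 to 3612974, - strand) encodes the growth hormone receptor and was the most abundant receptor gene of the axis per length. It measured 1455, 1246 and 1427 CPM at Pre, 1250, 1322 and 932 CPM at WL1, and 1406, 1453 and 1459 CPM at WL2. Pre overlapped with both later phases, and the 3 WL1 libraries lay below the 3 WL2 libraries. The difference was -0.24 (95% interval -0.55 to 0.07, adjusted p = 0.329) at WL1 against Pre, 0.06 (-0.25 to 0.38, adjusted p = 0.804) at WL2 against Pre, and 0.30 (-0.01 to 0.61, adjusted p = 0.248) at WL2 against WL1. The intervals leave room for a fall of the size of that of *Igf1* at WL1, but not at WL2. The library with the least *Ghr*, WL1 3, also had the smallest adipocyte sum, 23234 CPM, and the largest macrophage sum, 7617 CPM. The part of this mixture in the *Ghr* level was not tested.

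*Igf1r* (ENSMUSG00000005533, chromosome 7, 67602575 to 67883416, + strand) encodes the tyrosine kinase receptor of IGF1. It was low, at 23.4, 21.9 and 26.0 CPM at Pre, 33.9, 24.0 and 24.4 CPM at WL1, and 32.0, 34.8 and 37.3 CPM at WL2. The WL2 libraries all exceeded those of Pre, while WL1 overlapped with both because WL1 1 alone was high. The rise at WL2 against Pre was 1.46-fold (0.54 ± 0.15, adjusted p = 0.0467). It lay close to the threshold, and it passed in 1 of the 9 fits with 1 library left out, the one without WL1 1 (range of values 0.49 to 0.61). Without any one of the Pre libraries, WL1 2, WL1 3 or any one of the WL2 libraries, and without the hepatocyte-rich (0.57) or mesothelium-poor libraries (0.53), it did not pass, nor with limma on the FPKM (0.33 and 0.51). WL1 against Pre (0.20, adjusted p = 0.439) and WL2 against WL1 (0.34, adjusted p = 0.222) did not pass.

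*Igf1* and its receptor gene therefore moved in opposite directions at WL2. Per length, in the authors' FPKM, the ratio of *Igf1* to *Igf1r* was 13.7, 13.8 and 15.0 at Pre, 7.28, 10.6 and 9.81 at WL1, and 7.21, 5.69 and 5.53 at WL2. The ratio at Pre lay above all 6 later libraries, and WL1 and WL2 did not overlap. A ratio of transcripts within a library is free of the scaling between libraries but says nothing of the amounts of protein.

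*Igf2r* (ENSMUSG00000023830, chromosome 17, 12901293 to 12988551, - strand) encodes the cation-independent mannose 6-phosphate receptor, which clears IGF2 and carries enzymes to the lysosome. It was the gene that rose at WL1. Its level was 120, 116 and 131 CPM at Pre, 202, 187 and 254 CPM at WL1, and 163, 123 and 116 CPM at WL2, so that every WL1 library exceeded the other 6. The rise at WL1 was 1.75-fold (0.81 ± 0.16, adjusted p = 0.0152), and the fall from WL1 to WL2 was 37.5% (-0.68 ± 0.16, adjusted p = 0.0441). WL2 did not differ from Pre past the threshold (0.13, 95% interval -0.22 to 0.48, adjusted p = 0.634).

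The rise of *Igf2r* passed the threshold in 7 of the 9 fits with 1 library left out and not without Pre 1 or WL1 3 (0.66 to 0.90). The fall passed in 2 of them, without Pre 2 or WL2 1, and lost the threshold without Pre 1, Pre 3, any WL1 library, WL2 2 or WL2 3 (-0.84 to -0.52). It was also lost with the compared phases alone (-0.67) and with limma on the FPKM (-0.63 and -0.66). Without the hepatocyte-rich libraries the 2 changes were 0.88 and -0.72, and without the mesothelium-poor ones 0.88 and -0.77, none past the threshold.

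Macrophage and adipocyte RNA differed between the libraries that were high and low in *Igf2r*. Over 10 macrophage markers, the summed level was 1968, 3455 and 3010 CPM at Pre, 3879, 4810 and 7617 CPM at WL1, and 4245, 2118 and 2319 CPM at WL2. The highest sum and the highest *Igf2r* fell in WL1 3, and the WL2 library with the highest sum, WL2 1, also had the most *Igf2r* of its phase. The order was not the same throughout, since Pre 2 had the highest sum at Pre and the lowest *Igf2r* of all 9 libraries, and WL2 1 had a higher sum than WL1 1 with less *Igf2r*. The adipocyte sum was lower in the 3 WL1 libraries (23234 to 30961 CPM) than in the other 6 (34807 to 46915 CPM). Of the 10 adipocyte markers, 4 were lower past the threshold at WL1 against Pre, where 4.69% of all genes were. At WL2 against WL1, 3 were higher, beside 1.31% of all genes. *Car3* and *Fabp4* were the largest parts of the sum. At WL1 against Pre *Car3* fell (-0.93) while *Fabp4* hardly changed (-0.08). None of the 10 macrophage markers passed the threshold by itself in any comparison, 5, 1 and 7 had an unadjusted p under 0.05 by edgeR, and their median log2 fold changes were 0.64, 0.15 and -0.76. *Lyz2* and *Lgals3* were the largest parts of the macrophage sum. At WL1 against Pre, 8 of the markers had log2 fold changes above 0, but not *Cd163* (-0.41) and *C1qa* (-0.02). At WL2 against WL1, 2 were above 0, *Cd163* (0.70) and *Mertk* (0.21). The part of macrophage or adipocyte RNA in the *Igf2r* level was not tested.

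*Socs2* (ENSMUSG00000020027, chromosome 10, 95221224 to 95253042, - strand) encodes a suppressor of cytokine signalling that limits the growth hormone receptor. It had the lowest CPM of the 10 genes, at 12.4, 8.87 and 16.6 CPM at Pre, 16.7, 15.5 and 13.4 CPM at WL1, and 15.1, 15.9 and 21.1 CPM at WL2. Pre overlapped with both later phases, although Pre 2 and Pre 1 were the lowest of the 9 libraries. The differences were 0.27 (95% interval -0.23 to 0.76, adjusted p = 0.498), 0.46 (-0.03 to 0.95, adjusted p = 0.22) and 0.19 (-0.29 to 0.68, adjusted p = 0.682). A fall as large as that of *Igf1* at WL2 lies outside the interval of *Socs2* in the same comparison.

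Among the binding protein genes, *Igfbp3* (ENSMUSG00000020427, chromosome 11, 7156086 to 7163923, - strand) encodes the main carrier of IGF in blood. It measured 72.5, 53.8 and 60.1 CPM at Pre, 87.2, 81.5 and 81.7 CPM at WL1, and 51.1, 61.0 and 62.8 CPM at WL2. As with *Igf2r*, every WL1 library lay above the other 6, but the threshold was not passed at WL1 against Pre (0.43 ± 0.13, adjusted p = 0.0747) or at WL2 against WL1 (-0.52 ± 0.13, adjusted p = 0.0553). The former passed with total counts alone (0.53) and in DESeq2 (0.41). The latter passed without Pre 1 or without Pre 2 (range over the 9 fits -0.57 to -0.43), with no filter (-0.52), with the compared phases alone (-0.51) and in DESeq2 (-0.50). WL2 against Pre was -0.09 (adjusted p = 0.691), and its sign turned with total counts alone (0.06).

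*Igfbp4* (ENSMUSG00000017493, chromosome 11, 98932070 to 98945218, + strand) encodes a binding protein known as an inhibitor of IGF action, which the protease PAPPA cuts to release IGF. It measured 990.5, 1402 and 865 CPM at Pre, 564, 494 and 550 CPM at WL1, and 731, 913 and 1080 CPM at WL2. All WL1 libraries lay below the other 6, and Pre and WL2 overlapped. The level fell by 50.6% at WL1 (-1.02 ± 0.19, adjusted p = 0.0136). The threshold was lost without WL1 2 alone (-1.16 to -0.79 over the 9 fits), and also without the hepatocyte-rich (-0.93) or the mesothelium-poor libraries (-1.02). The rise from WL1 to WL2, 1.69-fold (0.76 ± 0.19, adjusted p = 0.0576), passed in 2 of the 9 fits, without Pre 2 or without WL2 1 (0.62 to 0.89). It also passed with no filter (0.76), with 0.5 CPM required in 3 libraries (0.79), with total counts alone (0.81), with the compared phases alone (0.77) and in DESeq2 (0.78). WL2 against Pre was -0.26 (adjusted p = 0.423). Between phases, the adipocyte sum was likewise lowest at WL1, but within phases there was no single order. At Pre, *Igfbp4* was highest in Pre 2 and lowest in Pre 3, which had similar sums (34807 and 35507 CPM). At WL1, *Igfbp4* was lowest in WL1 2, the library with the largest sum, but WL1 3, with the smallest sum, had less than WL1 1. At WL2 the order of *Igfbp4* was the reverse of that of the sum. The sum of 6 skeletal muscle markers was 30.1 to 46.9 CPM at Pre, 7.62 to 14.7 CPM at WL1 and 8.92 to 26.6 CPM at WL2. Most of it was *Acta1*, at 28.7 to 43.9 CPM at Pre, 4.64 to 12.0 CPM at WL1 and 6.30 to 21.5 CPM at WL2. *Tnnt3*, *Mylpf* and *Actn3* were not lower at WL1 than at Pre (0.77, 0.12 and 0.48), and *Myh4* had 0 reads in every library. The part of adipocyte or skeletal muscle RNA in the *Igfbp4* level was not tested.

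*Igfbp5* (ENSMUSG00000026185, chromosome 1, 72897091 to 72914043, - strand) encodes a matrix-bound carrier which, like IGFBP3, can join the ternary complex of IGF in blood. Its level was 695, 621 and 823 CPM at Pre, 407, 275 and 277 CPM at WL1, and 261, 443 and 558 CPM at WL2. Both later phases lay below Pre without overlap and overlapped with each other, WL2 being the most spread. The fall was 55.2% at WL1 (-1.16 ± 0.26, adjusted p = 0.0264), the largest of the 10 genes in that comparison. It passed the threshold in 5 of 9 fits and not without Pre 1, Pre 3, WL1 2 or WL1 3 (-1.37 to -1.04), nor without the hepatocyte-rich (-1.33) or mesothelium-poor libraries (-1.08). At WL2 the difference from Pre was -0.76 ± 0.26 (adjusted p = 0.0934), past the threshold with no filter (-0.76) and in DESeq2 (-0.76), and WL2 against WL1 was 0.40 (adjusted p = 0.426).

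The summed level of 8 mural cell markers (smooth muscle and pericytes) was, like *Igfbp5*, lower in both later phases than at Pre, with 1592 to 1868 CPM at Pre, 983 to 1340 CPM at WL1 and 935 to 1307 CPM at WL2. Of these markers, 2 were lower past the threshold at WL1 and 3 at WL2 against Pre, and none differed between WL1 and WL2, where 1 had an unadjusted p under 0.05 by edgeR. Not all went down, since *Notch3* and *Tagln* had log2 fold changes of 0.21 and 0.40 at WL1, and *Tagln* of 0.71 at WL2 against Pre. *Tagln* was low, at 1.29 to 3.34 CPM. The skeletal muscle sum given above, most of which was *Acta1*, was lower in both later phases as well. The part of mural or muscle RNA in the *Igfbp5* level was not tested.

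*Igfbp6* (ENSMUSG00000023046, chromosome 15, 102052797 to 102057946, + strand) encodes a binding protein with a preference for IGF2. It measured 99.6, 211 and 189 CPM at Pre, 121, 77.0 and 121 CPM at WL1, and 189, 241 and 276 CPM at WL2. WL1 and WL2 did not overlap, and Pre overlapped with both, with Pre 1 in the range of WL1 and Pre 2 in that of WL2. The rise from WL1 to WL2 was 2.21-fold (1.15 ± 0.28, adjusted p = 0.0499), at the threshold itself. It passed in 3 of 9 fits and not without Pre 3, any WL1 library, WL2 2 or WL2 3 (0.96 to 1.28), and it passed without the hepatocyte-rich libraries (1.25) but not without the mesothelium-poor ones (0.96) or with limma on the FPKM (1.17 and 1.18). WL1 against Pre (-0.65, adjusted p = 0.18) and WL2 against Pre (0.50, adjusted p = 0.277) did not pass.

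*Igfbp6* was read beside markers of mesothelium, the cell layer on the surface of the fat pad, and of fibroblasts and progenitors. The mesothelial sum was 40.0, 382 and 347 CPM at Pre, 237, 45.4 and 119 CPM at WL1, and 248, 538 and 712 CPM at WL2. Pre 1 and WL1 2, the lowest in mesothelial RNA, were the lowest in *Igfbp6* of their phases and of all 9 libraries, and WL2 3 was the highest in both. The same libraries were at the ends of the sum of 10 fibroblast and progenitor markers, which was 1719, 2025 and 2210 CPM at Pre, 2014, 1663 and 2305 CPM at WL1, and 2231, 2499 and 2693 CPM at WL2. Its largest part was *Dcn*, with means of 701, 847 and 1250 CPM in the 3 phases. At WL2 against WL1, 7 of the 10 had log2 fold changes above 0, while *Lum* (-0.72), *Col14a1* (-0.21) and *Dpt* (-0.05) fell. Past the threshold were 0, 1 and 0 of the 10 in the 3 comparisons, beside 7.29%, 10% and 3.68% of all genes. None of the 8 mesothelial markers passed the threshold in any comparison, and 0, 0 and 7 had an unadjusted p under 0.05 by edgeR. The part of mesothelial or fibroblast RNA in the *Igfbp6* level was not tested.

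**Figure D3:**
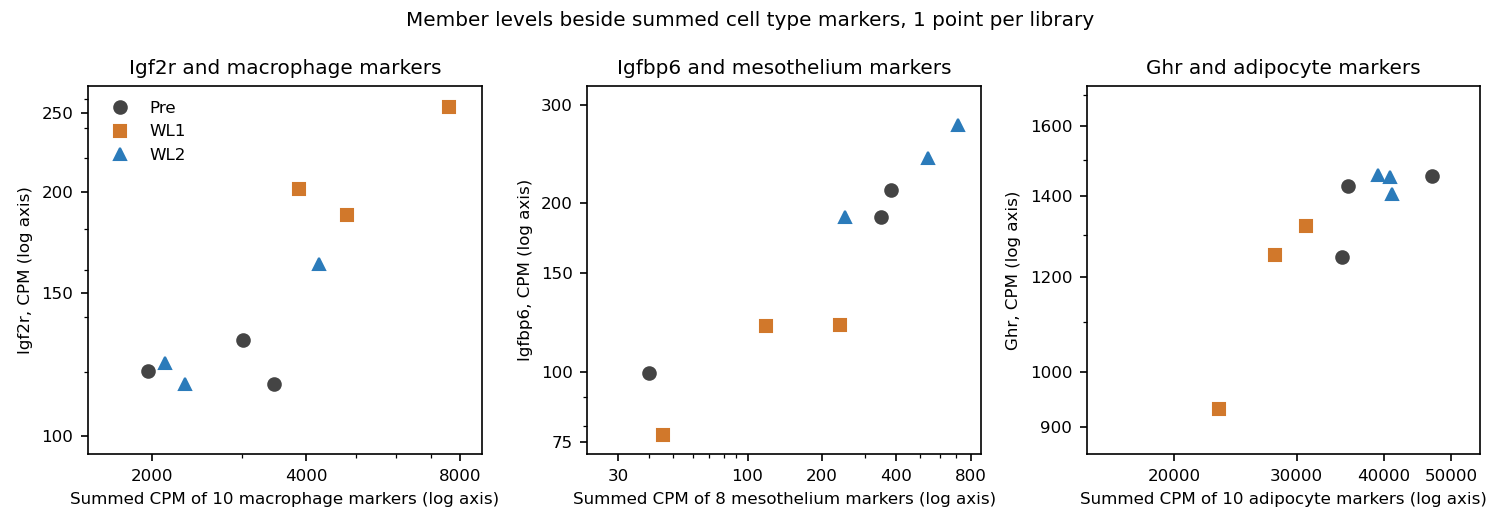
Level of *Igf2r*, *Igfbp6* and *Ghr* in CPM (vertical log axes) beside the summed CPM of macrophage, mesothelium and adipocyte markers (horizontal log axes), with 1 point per library and symbols for the phases. *Igf2r* was highest in WL1 3, the library with 7617 CPM of macrophage markers, *Igfbp6* was lowest in Pre 1 and WL1 2, with 40.0 and 45.4 CPM of mesothelial markers, and *Ghr* was lowest in WL1 3, with 23234 CPM of adipocyte markers.

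*Igfbp7* (ENSMUSG00000036256, chromosome 5, 77497087 to 77555888, - strand) encodes a protein of vessel walls and matrix that binds IGF weakly. It hardly varied, at 351, 338 and 343 CPM at Pre, 326, 337 and 326 CPM at WL1, and 362, 352 and 339 CPM at WL2. The highest library was 1.11-fold above the lowest, and the WL1 libraries lay just below all others. The differences were -0.06 (95% interval -0.26 to 0.14, adjusted p = 0.717) at WL1 against Pre, where total counts alone turned the sign (0.04), 0.03 (-0.17 to 0.23, adjusted p = 0.864) at WL2 against Pre, and 0.09 (-0.11 to 0.29, adjusted p = 0.626) between WL1 and WL2. The gene gave the narrowest intervals of the axis.

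Levels can be compared between genes only per length, for which the authors' FPKM were used. In all 3 phases *Igfbp7* was the most abundant of the 10 genes, with 267 ± 4.94 FPKM at Pre, 252 ± 3.84 FPKM in WL1 and 272 ± 5.76 FPKM in WL2 (mean ± SD, n = 3). The least abundant of them were *Igf1r* and *Socs2*, between 1.24 and 1.94 FPKM. At Pre the order after *Igfbp7* was *Igfbp4* (231 ± 59.9), *Ghr* (143 ± 11.6), *Igfbp6* (141 ± 50.0), *Igfbp5* (111 ± 16.0), *Igf1* (18.9 ± 2.60), *Igfbp3* (18.6 ± 2.83) and *Igf2r* (12.3 ± 0.811), where *Igfbp7* and *Igfbp4*, *Ghr* and *Igfbp6*, *Igfbp6* and *Igfbp5*, and *Igf1* and *Igfbp3* lay within their spread. Summed, the binding protein transcripts far exceeded that of the ligand. At WL2, *Igf1* (11.8 ± 0.736 FPKM) ranked below *Igfbp3* (17.5 ± 2.16) and *Igf2r* (13.5 ± 2.29), the latter within the spread, and *Igfbp6* (199 ± 39.8) stood beside *Igfbp4* (193 ± 39.8).

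The make-up of the binding protein transcripts shifted with the phases. Of the summed FPKM of the 5 genes, *Igfbp4* took 29.8% ± 5.34 at Pre, 21.3% ± 0.298 in WL1 and 25.7% ± 1.89 in WL2 (mean ± SD, n = 3). *Igfbp5* took 14.7% ± 2.91, 9.29% ± 1.73 and 8.63% ± 2.17, and *Igfbp6* took 18.0% ± 5.17, 16.7% ± 3.19 and 26.4% ± 1.80. The steady *Igfbp7* took 35.0% ± 4.16, 48.0% ± 3.95 and 36.9% ± 5.79, its larger share at WL1 coming with a smaller sum, 527 ± 34.9 FPKM against 769 ± 78.8 at Pre and 748 ± 101 at WL2. *Igfbp3* held 2.47% ± 0.616, 4.69% ± 0.185 and 2.34% ± 0.0748. No test was run on the shares, which depend on each other.

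**Figure D4:**
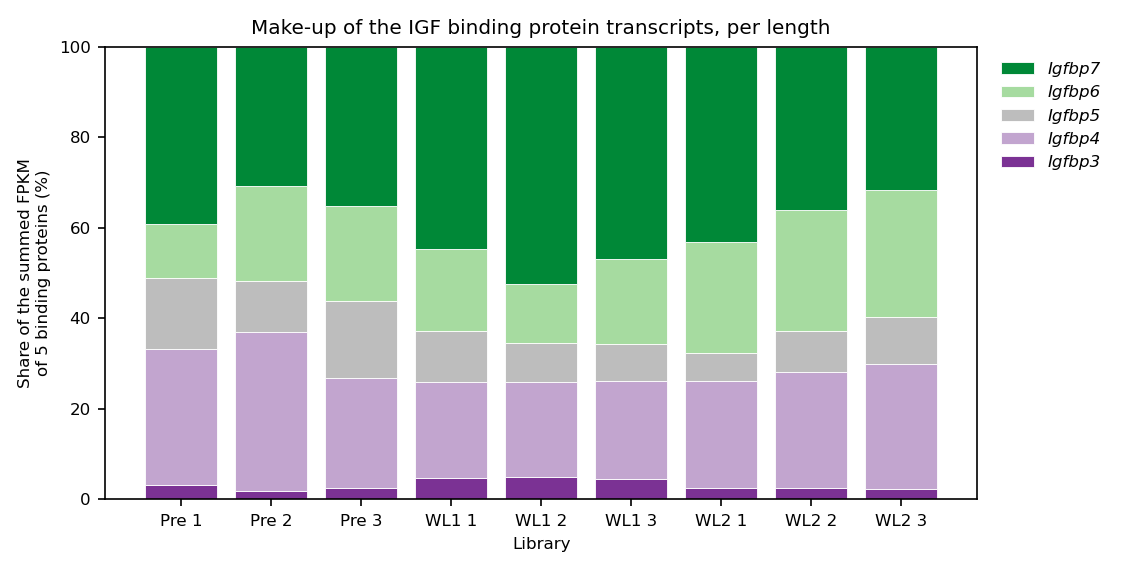
Share of each of 5 binding protein genes in their summed FPKM (vertical axis, %) in each of the 9 libraries (horizontal axis). *Igfbp7* made up 44.7% to 52.4% of the sum at WL1 against 30.8% to 39.1% at Pre, and *Igfbp6* 24.5% to 28.0% at WL2 against 12.0% to 21.1% at Pre.

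Other genes of the axis came from a list of 27, of which 26 were tested. At WL1 against Pre, 6 were lower and 0 higher, at WL2 against Pre 4 were lower and 0 higher, and at WL2 against WL1 1 was lower and 0 higher. Those past the threshold made up 23.1%, 15.4% and 3.85% of the list, beside 7.29%, 10% and 3.68% of all genes tested. The median log2 fold changes of the list were -0.06, -0.02 and 0.11, beside 0.02, 0.01 and -0.0014 over all genes tested. The other tested genes of the list passed in no comparison, among them *Jak2*, *Stat5b*, *Socs1*, *Socs3*, *Cish*, *Irs1*, *Irs2* and *Insr*. The ligand gene *Igf2* and the protease gene *Pappa* were hardly detected, at 0.059 to 0.543 CPM and 0.138 to 0.637 CPM, which is at most 10 and 11 reads.

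*Igfals* (ENSMUSG00000046070) showed the largest change past the threshold among the axis genes. It encodes the acid-labile subunit, which joins IGF and IGFBP3 or IGFBP5 in the long-lived ternary complex of blood and is itself a known target of growth hormone in liver. It measured 151, 117 and 127 CPM at Pre, 41.1, 41.4 and 35.4 CPM at WL1, and 13.1, 24.5 and 21.6 CPM at WL2. The 3 phases did not overlap. The log2 fold change was -1.74 ± 0.20 at WL1 (adjusted p = 0.00121) and -2.74 ± 0.21 at WL2 against Pre (adjusted p = 4.39e-05), and both passed in each of the 9 fits with 1 library left out (-1.82 to -1.63 and -2.92 to -2.51). The further step from WL1 to WL2 (-0.99 ± 0.20, adjusted p = 0.0305) was lost without any one of the WL1 libraries, WL2 2 or WL2 3 (-1.18 to -0.77).

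Because the acid-labile subunit of blood is made by hepatocytes, *Igfals* was also read against hepatocyte RNA. Pre 1 had the lowest hepatocyte sum of its phase, 11.2 CPM, and the highest *Igfals* of all libraries, 151 CPM, and WL1 1, with a hepatocyte sum of 85.8 CPM, had 41.1 CPM of *Igfals*, within 1 CPM of WL1 2 with a sum of 3.86 CPM. Without the hepatocyte-rich libraries the falls were -1.98 and -2.94, against Pre 1 alone, the library with the most *Igfals*. Without the mesothelium-poor ones they were -1.67 and -2.62, both past the threshold. The part of hepatocyte RNA in the *Igfals* level was not tested. The ratio of *Igfals* to *Igf1* in FPKM was 2.50, 2.04 and 1.72 at Pre, 0.883, 0.866 and 0.785 at WL1, and 0.302, 0.655 and 0.555 at WL2. The carrier gene thus fell by more than the ligand gene in every library of the later phases.

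Inside the cell, *Stat5a*, a transcription factor of the growth hormone receptor, was lower in both later phases, at 64.6, 62.7 and 55.2 CPM at Pre, 43.8, 44.5 and 40.8 CPM at WL1, and 44.8, 43.5 and 47.3 CPM at WL2. Pre did not overlap with either. The log2 fold changes were -0.50 ± 0.10 (adjusted p = 0.0174) and -0.43 ± 0.10 (adjusted p = 0.0243). Each passed in 5 of 9 fits and not without Pre 1 or any one of the libraries of the later phase compared (-0.57 to -0.45 and -0.49 to -0.38). Its close relative *Stat5b* was at 0.05 (95% interval -0.17 to 0.26) and -0.02 (-0.24 to 0.19), adjusted p = 0.811 and 0.911.

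*Akt2*, a kinase downstream of the insulin and IGF1 receptors that is abundant in adipocytes, measured 445, 453 and 381 CPM at Pre, 249, 268 and 238 CPM at WL1, and 344, 323 and 304 CPM at WL2. The 3 phases did not overlap, and WL1 was the lowest. The fall at WL1 (-0.76 ± 0.11, adjusted p = 0.00382) passed in each of the 9 fits, while that at WL2 (-0.40 ± 0.11, adjusted p = 0.0467) passed in 1 of them, without Pre 3 (-0.83 to -0.72 and -0.47 to -0.35). The adipocyte sum was lowest at WL1 as well, and its part was not tested. *Grb14*, an adaptor that inhibits the insulin receptor, fell at WL1 (-1.08 ± 0.27, adjusted p = 0.0391), which was lost without Pre 1, Pre 3, WL1 1, WL1 2, WL2 2 or WL2 3 (-1.32 to -0.76).

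Among the genes that act on binding proteins, *Htra1*, a secreted protease, fell from 321 to 330 CPM at Pre to 223 to 238 CPM at WL1 (-0.50 ± 0.13, adjusted p = 0.0398) and 192 to 265 CPM at WL2 (-0.46 ± 0.13, adjusted p = 0.0432). Pre overlapped with neither phase. The calls held in 2 and 1 of the 9 fits (-0.53 to -0.48 and -0.56 to -0.33). The first was lost without any one of the Pre or WL1 libraries or WL2 2, and the second without any library other than WL2 3. *Stc2*, which encodes an inhibitor of PAPPA proteases, fell from 40.0, 32.8 and 23.9 CPM at Pre to 21.2, 19.1 and 17.5 CPM at WL1 (-0.74 ± 0.17, adjusted p = 0.0307) and measured 25.3, 24.5 and 25.5 CPM at WL2 (-0.36, adjusted p = 0.214). The fall at WL1 was lost without Pre 1, Pre 2, any WL1 library or WL2 2 (-0.92 to -0.55).

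Without the hepatocyte-rich libraries, *Igfals* and *Stc2* were the genes of the list past the threshold at WL1 and at WL2 against Pre. That fit compares with Pre 1 alone, which had the most *Stc2* of all libraries, 40.0 CPM, and the most *Igfals*. Without the mesothelium-poor libraries, *Igfals* and *Akt2* passed at WL1 and *Igfals* at WL2 against Pre. At WL2 against WL1, *Pik3r1*, a regulatory subunit of phosphoinositide 3-kinase, passed in the first fit (0.81) and no gene of the list in the second. *Stat5a*, *Htra1* and *Grb14* passed in neither.

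**Figure D5:**
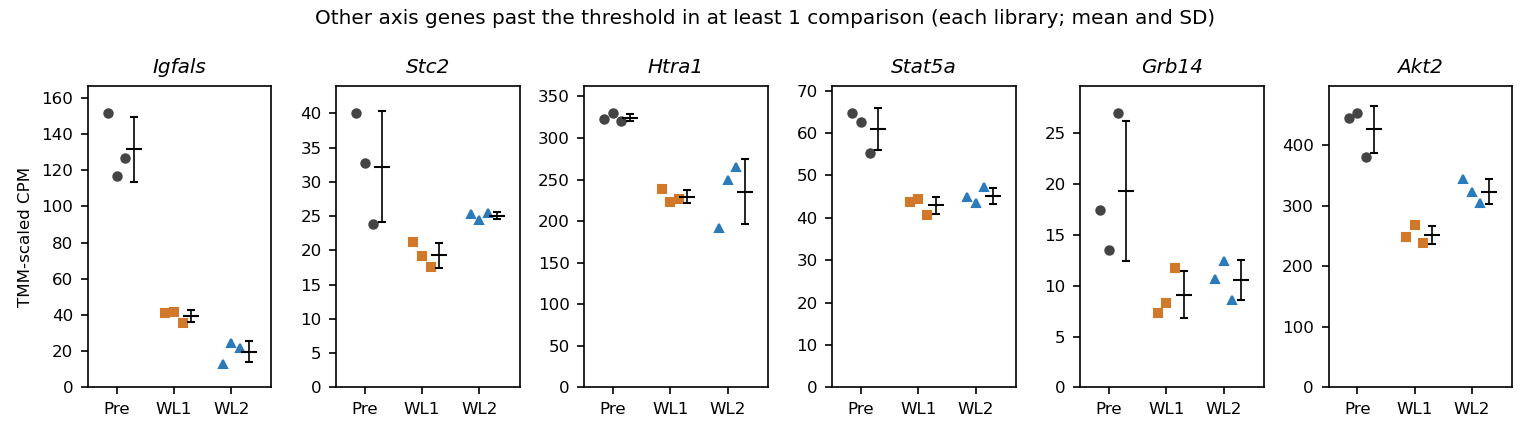
Level of the 6 further axis genes past the threshold in at least 1 comparison, in TMM-scaled CPM (vertical axes, each from 0) by phase (horizontal axis), with 1 symbol per library and the mean and SD of 3 libraries beside them. *Igfals* dropped from 117 to 151 CPM at Pre to 13.1 to 24.5 CPM at WL2, and *Stat5a* and *Htra1* were lower in all 6 later libraries than at Pre.

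The genes most like 3 members were ranked by Pearson's r of log2 CPM over the 9 libraries among 14638 genes with a mean of at least 1 CPM, as a description, since the libraries share phases. For *Igf1* they were *Echdc1* (0.99), *Hmgcs1* (0.98), an enzyme of cholesterol synthesis, and *Lactb2* (0.98), and 1.53% of genes had an r above 0.9. *Igf2r* was followed by *Myo1e* (0.98), *Mamld1* (0.98) and *Osbpl3* (0.98), with 2.6% above 0.9. For *Igfbp4* they were the mitochondrially encoded *mt-Nd3* (0.96), *Tmem98* (0.96) and *Gm28439* (0.95), with 0.266% above 0.9. *Igfbp4* had the fewest near matches of the 3, and its level and the mitochondrial share of counts were both lowest at WL1. The part of that share in the *Igfbp4* level was not tested.

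Reads of some members can be shared with genes on the other strand, since no source used here states the strand setting of the counting. The antisense transcript *Igf1os* had 9 to 37 reads per library, 0.784% of the reads of *Igf1*, and *Airn*, antisense to *Igf2r*, had 53 to 123 reads, 3.34%. *Igfbp7* overlaps *Polr2b*, which had 892 to 1263 reads, 16.7% of those of *Igfbp7*, and *Gm34648*, with 0 to 3 reads.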

How the data were processed

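Epididymal adipose tissue RNA was sequenced in 9 libraries (3 each at Pre, WL1 and WL2), grouped by the sample labels. The authors deposited whole-number read counts per gene without normalization and FPKM (scaled by gene length and library total) of the same libraries. The submitters' processing notes name CASAVA, HISAT2, HISAT, TopHat2, GRCm38 and mm10 without roles. No source used here gives the counting program or the strand setting. Since 0 of 10 members had the same start and end in GENCODE M21 on GRCm38, gene positions are those of the authors' table, without a build. Columns that matched no sample numbered 0.

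A gene was tested where 1 or more libraries reached 0.5 CPM (18510 genes). Counts of all 9 libraries entered 1 quasi-likelihood model of edgeR 4.0.16 under R 4.3.3, scaled by TMM and without covariates. Benjamini-Hochberg adjusted p-values were read at a threshold of 0.05. Log2 CPM for r used a prior count of 4. Results were recomputed unfiltered, with 0.5 CPM required in 3 libraries, and with other scaling factors, DESeq2 1.42.0, limma 3.58.1 on log2(FPKM + 1) and log2(FPKM + 0.1), the replicate number as a block, the compared phases alone and leaving out each library. The fits without hepatocyte-rich or mesothelium-poor libraries were added after seeing the data. Named were all members, the listed axis genes past the threshold in at least 1 comparison, others as counts or for their role after their values were seen, and for the 3 members with the smallest p the 3 genes with the highest r. Members, gene lists and the 3 promoter motifs were chosen with earlier results of these data known. Tested on simulated counts of 18510 genes with 200 changed 3-fold, the main test recovered 193 (WL1 against Pre), 193 (WL2 against Pre) and 194 (WL2 against WL1), with 2.53%, 4.46% and 4.43% false calls. Every simulated gene had the same dispersion of 0.05, and only genes above 1 CPM were changed. Unequal spread between genes, uneven cell mixtures and smaller changes were not simulated, so these rates do not describe them. No pair of libraries within a phase was a duplicate by its counts (chi-square over degrees of freedom 9.26 to 49.7).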

Additional observations from a re-analysis of the deposited data

How the results depend on the processing

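Of 360 fold changes of the 10 members under alternatives other than leaving out 1 library, 315 kept direction and side of the threshold, 28 lost the threshold, 12 gained it and 5 turned sign; with each library left out, 228 of 270 were kept, 35 lost it, 4 gained it and 3 turned. The turned values were *Igfbp7* at WL1 against Pre (0.036) and *Igfbp3* at WL2 against Pre (0.061) with total counts alone, where the median of all genes was 0.12 and 0.16 (0.02 and 0.01 with TMM), *Igfbp3* at WL2 against Pre without Pre 1 (0.033, range over the left-out libraries -0.19 to 0.033) and without mesothelium-poor libraries (0.034), *Ghr* at WL2 against Pre without Pre 2 (-0.0020) and without hepatocyte-rich libraries (-0.017), *Igf2r* at WL2 against Pre without WL2 1 (-0.034, range -0.034 to 0.22), and *Igfbp7* at WL2 against Pre without hepatocyte-rich libraries (-0.0027); none had been called.

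At WL1 against Pre, WL2 against Pre and WL2 against WL1, members past the threshold numbered 4, 2 and 2 (the axis list 6, 4 and 1). With the replicate block they were 2, 1 and 0 (list 4, 1 and 0), without hepatocyte-rich libraries 0, 0 and 1 (2, 2 and 1), and without mesothelium-poor ones 0, 1 and 0 (2, 1 and 0). Both limma fits gave 1 member at WL2 against Pre and 0 at WL2 against WL1, where no filter gave 4 (list 3) and DESeq2 4 (list 4). The list at WL2 against Pre had 2 with total counts alone and 1 with the compared phases alone. Leaving out each library gave members 1 to 4, 1 to 2 and 0 to 4, and the list 2 to 6, 1 to 4 and 0 to 2. Over all genes, DESeq2 called 2344, 2717 and 1935 and the replicate block 844, 1399 and 330, against 1350, 1853 and 681. The 2 limma fits called 1820 and 1771 at WL2 against Pre and 537 and 546 at WL2 against WL1. No filter called 1668 of 29550 genes at WL2 against WL1. At WL2 against Pre, total counts alone called 2330 and the compared phases alone 1314. The causes were not tested, other than fewer libraries where some were left out. The replicate numbers are a number alone in the labels. After the phase mean of each gene was subtracted from its log2 CPM, same-numbered libraries of different phases correlated at -0.277 to 0.107. By these values 1 of 9 correlated best with its own number, so the block is given here as an alternative. With 3 libraries per phase, intervals were wide for *Igfbp6* and *Igfbp5* (SE 0.27 and 0.26 at WL1 against Pre) and for *Socs2* (0.22), a gene near 10 CPM.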
